A study of Xenopus laevis with 13 samples.

Results

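A set of 200 array probes in *Xenopus laevis* embryos was not called well above background from the unfertilized egg through stage 9, the late blastula, and was called well above background at stage 10.5, the early gastrula, and at each later stage to the stage 40 tadpole. These 200 probes, which carry 162 GenBank accessions, were taken from 43803 non-control probes on 1 Agilent one-color array per stage. The choice was made in steps. Of all probes, 1425 were called by the scanner software as well above background on none of the 5 arrays to stage 9 and on all 8 arrays from stage 10.5. Of these, 370 were left out because their signal at stage 40 was below that at stage 10.5, and a further 25 because it was 4-fold or more above that at stage 30. The 200 with the highest signal at stage 10.5 were kept from the remaining 1030, and the other 830 serve below as the nearest comparison. Signal is given throughout as the log2 of the processed intensity minus the log2 of the array's 75th percentile, so that 0 is the 75th percentile itself and a difference of 1 is 2-fold. The values at stages 10.5, 30 and 40 and the detection calls at every stage therefore chose the probes, and they are described here without a test. At stage 10.5 the 5 probes just inside the limit lay between -2.52 and -2.50, and the 5 just outside it between -2.58 and -2.54, so that the limit does not mark a gap.

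The 13 samples were whole unfertilized eggs and whole embryos at the two-cell stage, the 16-cell stage and stages 8, 9, 10.5, 12, 15, 20, 25, 30, 35 and 40, with the embryos dejellied and kept in dilute Steinberg's solution. The labels give no treatment, strain, sex or genotype, and by the study's methods a sample was taken from several eggs or embryos of a stage. Each stage was 1 array, and for 8 samples a second label names another stage than the title. Stages were taken from the titles. A fall in a whole-embryo sample can be fewer cells of a type or less RNA per cell, and these cannot be told apart. Because signal is scaled within each array, a fall can also be a rise of the other probes.

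The early *Xenopus* embryo runs on RNA and protein laid down in the oocyte. Its own genome is largely silent during the rapid cleavage divisions and becomes active at the midblastula transition, after which gastrulation movements bring mesoderm and endoderm inside the embryo. Genes that first give RNA in this window include many regulators of germ layers and axis formation as well as structural genes of the new tissues, and their RNA may be transient or stay through neurula and tailbud stages. The probes described here are of the staying kind by construction. Which genes they measure is not known from the files, since these give a GenBank accession per probe, and of 28256 such accessions 0 matched the gene table used. No gene, pathway or tissue marker is therefore named, and the results are grouped by the course of the signal.

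The arrays differed in their overall level, which bears on each course. Before scaling, the 75th percentile of the processed signal was 942 in the egg and 1122 to 2008 in the embryos, and the share of all probes well above background was 59.0% in the egg, 63.9% at stage 9, 69.2% at stage 10.5 and 79.5% at stage 40. No probe was saturated. Stages 9, 10.5, 12 and 15 shared a slide, stages 20 to 35 shared another, and stage 40 lay on a slide of its own. With no replicate arrays the spread between embryos of a stage is unknown. The scanner software's own error for these 200 probes from stage 10.5 on had a median of 10.0% of the signal and reached 16.6%, which covers the spot and not the embryo.

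The step from off to on at stage 10.5 is fixed by the choice, and its size is given as a description. At stage 9 the median of the 200 probes was -8.48, at the floor of the array, and at stage 10.5 it was -1.54, with a lowest value of -2.52 and a highest of 3.105. Because the stage 9 value is only an upper limit, the step is given as at least N-fold, the stage 10.5 signal over the higher of the probe's own stage 9 signal and the lowest stage 9 signal called well above background. By this limit the step was at least 12.37-fold for every one of the 200 probes, at least 29.6-fold at the median and at least 739-fold for the highest. It was at least 16-fold for 188 probes and at least 64-fold for 37. Both arrays lay on the same slide. With quantile normalization the median limit was 14.6-fold. These sizes follow in part from choosing the brightest probes at stage 10.5.

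Other probes for the same sequences gave a second reading of this step. For 73 of the 162 accessions, the array holds 76 further probes that were not among the 200. They share the RNA, the arrays and the contrast with the probes that were chosen, so their values are a description and not a replicate. Of the 72 that were well above background at stage 9 or stage 10.5, 70 were at least 2-fold higher at stage 10.5 and none was at least 2-fold lower. That is 97.2%, beside 13.7% of all probes under the same condition. The other 2 were higher by 0.72 and 0.85 on the log2 scale. Where the further probe could be measured on both arrays, the step had no floor in it: 23 of 24 such probes rose at least 2-fold, beside 6.25% of all probes, and the median step was 4.43 on the log2 scale, with a range of 0.72 to 7.02.

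These further probes also bear on how firmly the RNA can be called absent before stage 10.5, but they are a selected set. The 75 chosen probes that share an accession with another chosen probe are left out of it. By the rule none of those had a call before stage 10.5. The counts below therefore lean toward probes with an early call and away from probes with the same on pattern. Of the 76, 27 (35.5%) had the same on pattern, none of the calls to stage 9 and all from stage 10.5, beside 3.25% of all probes. In contrast, 44 were well above background on at least 1 of the 5 earlier arrays and 11 on all 5. Of the 44, 42 rose at least 2-fold from stage 9 to stage 10.5. The egg had 19 of them well above background, the two-cell stage 26, the 16-cell stage 25, and stages 8 and 9 had 18 and 24. On the same arrays in that order, 59.0%, 66.4%, 64.9%, 64.2% and 63.9% of all probes had this call. The shares of all probes with a call on at least 1 or on all of these arrays were not counted. The 44 is therefore not read as many. Another 5 had neither an early call nor the full later pattern, 2 of them with no call at any stage from 10.5. Off therefore means below the limit of the particular probe, and for the accessions of the 44 another probe gave a call earlier.

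Probes of 1 accession also gave like courses after the onset. The 200 probes hold 36 accessions with 2 probes and 1 with 3, which makes 39 pairs. Over the 8 stages from 10.5 to 40, the correlation within a pair had a median of 0.994 and was above 0.9 in 38 pairs, with a lowest value of 0.739. The highest value fell at the same stage in 35 pairs and at neighboring stages in 2 more. After the mean level gap was removed, the largest gap at any stage was under 0.5 (log2) in 35 pairs, with a median of 0.21 and a highest value of 0.97. The mean gap in level between both probes of a pair was larger, 0.54 at the median and up to 2.18, so signal heights are compared within a probe and not between probes. Among the further probes, 71 were well above background at all 8 stages, and their correlation with the chosen probe had a median of 0.992 and was above 0.9 for 59. All of these correlations rest on 8 arrays that both probes share and that differ together in overall level. They include stage 10.5, which the rule used and which was the lowest of the 8 stages for 175 of the 200 probes. That common rise alone can make probes of different accessions correlate. No correlation or share of like highest stages is given for such probes, so these values are a description.

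From stage 10.5 to stage 12 the median of the 200 probes went from -1.54 to 0.73. Of them, 174 (87%) were at least 2-fold higher and 4 (2%) at least 2-fold lower, while 21.1% and 15.7% of all probes with a call on either array changed that much in each direction, and 18.4% and 14.5% of those with a call on both. Since the choice used the stage 10.5 value, nothing is read from this contrast. The other 830 probes of the same on pattern, which were dimmer at stage 10.5 by the rule, were at least 2-fold higher in 84.9% and lower in 0.602%.

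The next 3 steps compare stages whose signal was not used in the choice. All 200 probes were well above background at each of them, so the nearest background is the probes with a call on both arrays, given second. From stage 12 to stage 15, 36 of the 200 probes (18%) were at least 2-fold higher, beside 18% of all probes with a call on either array and 14.2% of those with a call on both. At least 2-fold lower were 11 (5.5%), beside 18.5% and 17.5%. The share that was higher was near that of the array, and the share that was lower was smaller. Among the other 830 probes, 39.0% rose and 2.41% fell by that much.

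From stage 15 to stage 20, which lie on different slides, 15 probes (7.5%) were higher, beside 10.9% and 8.57%, and 14 (7%) were lower, beside 9.85% and 8.23%. Both shares were near those of the array. From stage 20 to stage 25, 3 probes (1.5%) were higher, beside 9.18% and 6.91%, and 7 (3.5%) were lower, beside 5.36% and 4.34%. In this last step the share that was lower was near that of the array. With 1 array per stage none of these differences has a replicate check.

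The later steps involve stages 30 and 40, whose signal entered the choice, and are given as values. From stage 25 to stage 30, 2 probes were at least 2-fold higher, beside 7.45% with a call on either array and 5.58% with a call on both, and 11 were lower, beside 3.92% and 3.29%. From stage 30 to stage 35, 1 was higher, beside 3.91% and 3.12%, and 5 were lower, beside 3.11% and 1.98%. From stage 35 to stage 40, 3 were higher, beside 7.62% and 5.33%, and 16 were lower, beside 3.3% and 2.96%. The median signal of the 200 probes, 1.21 at stage 15 and 1.00 at stage 20, was 0.58 at stage 25, then 0.33 and 0.30 at stages 30 and 35, and 0.19 at stage 40. For the other 830 probes the median changed less over the same stages, from -1.71 at stage 15 to -1.82 at stage 40.

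From stage 10.5 to stage 12 the median change was 2.14 (log2) in the 200 probes and 0.14 in all probes with a call on either array. Relative to the latter, the later changes of the 200 were 0.34 to stage 15, -0.08 to stage 20, -0.22 to stage 25, -0.14 to stage 30, -0.01 to stage 35 and -0.11 to stage 40. Scaling each array to its median or to its spike-in RNA leaves these relative values as they are, because such scaling adds a constant per array. With quantile normalization they kept their signs except from stage 30 to stage 35, where the value was 0.002. How far a step is a rise does depend on the scale. With spike-in scaling the median over all probes rose by 0.71 from stage 20 to stage 25 and that of the 200 probes by 0.49. In that step 25 of the 200 were at least 2-fold higher and none lower. The share of all probes that changed this much on the spike-in scale was not counted, so nothing is read from the 25. On that scale the median of the 200 also rose by 0.21 to stage 30 and by 0.08 from stage 35 to stage 40.

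The 200 probes did not share 1 course. The highest signal fell at stage 12 for 55 probes, stage 15 for 69 and stage 20 for 27, which together made 151, and at stages 25, 30, 35 and 40 for 11, 12, 8 and 18. With spike-in scaling this count was 46, and 80 of the 200 probes kept the stage of their highest signal, so the split below holds relative to the other probes of an array and not as an absolute amount of RNA. With the median it was 165 and with quantile normalization 142.

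The 55 probes highest at stage 12 went from a median of -1.05 at stage 10.5 to 1.56 at stage 12 and then down, through 1.02, 0.86 and 0.18 at stages 15, 20 and 25, to -0.08 at stage 30. They then stayed level, at 0.16 and 0.18 at stages 35 and 40. At stage 40 their median fall from the highest value was 1.43 on the log2 scale, and 11 of the 55 were within 2-fold of it. The stage of the highest signal defines this group, and the rule itself kept stage 40 at or above the onset level.

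The 96 probes highest at stage 15 or 20, the neurula stages, had medians of -1.67 at stage 10.5, 0.71 at stage 12, then 1.62 and 1.36 at stages 15 and 20, 0.84 at stage 25, and 0.32, 0.29 and -0.10 at stages 30, 35 and 40. This group holds the widest course of the 200, with a range of 7.98 (log2) from stage 10.5 to stage 40, and 28 of its probes ranged over 16-fold or more. At stage 40, 30 of the 96 were within 2-fold of their highest signal.

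The 49 probes highest at stages 25 to 40 rose more slowly, which follows in part from the late highest signal that defines this group. Their medians were -1.44 at stage 10.5, -0.15 at stage 12, 0.22 and 0.21 at stages 15 and 20, 0.50 at stage 25 and 0.66 to 0.70 from stage 30 on. Of the 49, 39 were within 2-fold of their highest signal at stage 40. The narrowest course of the 200 was also in this group, with a range of 0.49 over all 8 stages, and both probes with a range under 2-fold belonged to it.

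A smaller set dipped after the onset. For 175 probes the lowest signal from stage 10.5 on was that at stage 10.5, whereas 25 had it later, 14 of them (12 accessions) at stage 12 or 15 and 11 at stage 20 or after. In the 14, the fall from stage 10.5 to the lowest value was between 0.25 and 2.69 on the log2 scale, with a median of 1.14. Of the 14, 12 had their highest signal at stages 25 to 40, 6 of these at stage 40 itself. The median of the 14 went from -1.60 at stage 10.5 to -2.01 at stage 12 and -1.80 at stage 15, and back through -0.99 and -0.75 at stages 20 and 25 to -0.16 at stage 30. All 14 were called on at each of these stages, and the dip is what picked them. Their return differed: above their own stage 10.5 signal were 7 of the 14 in stage 20, 9 in stage 25 and 12 in both stages 30 and 35. By the rule none was below it in stage 40.

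The range of the signal over the 7 stages from 12 to 40 had a median of 1.74 (log2) in the 200 probes, beside 1.70 for the 27203 probes well above background at all 7. It was under 2-fold for 31 probes (15.5%), beside 19.3% of all such probes, under 4-fold for 121 (60.5%), beside 60.5%, and 16-fold or more for 10 (5%), beside 8.32%. In the other 830 probes of the same on pattern, 16.9% ranged under 2-fold and 14.2% over 16-fold or more. This range includes stages 30 and 40, which the rule used, so it is a description only. Within 2-fold of their own highest signal were 7 of the 200 at stage 10.5, 138 (69%) at stage 12, 167 (83.5%) at stage 15, 155 (77.5%) at stage 20, 128 (64%) at stage 25 and 80 (40%) by stage 40. The shares among the other 830 probes were 2.05%, 46.4%, 71.7%, 74.5%, 66.5% and 58.9%.

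The tailbud was compared with the neurula by using stages 15 and 20 against stages 25 and 35, with stages standing in for replicates. On these 4 arrays the choice used the detection call but not the height of the signal. Stage 15 lay on another slide than stages 20, 25 and 35. On the scale used here most of the 200 probes lay lower in the tailbud. With spike-in scaling their median difference was 0.39, the opposite sign, so no absolute fall in RNA is read from this. On the scale used here the median difference, tailbud minus neurula, was -0.52 (log2), with quartiles of -0.90 and -0.04. It was -0.16 for the 28932 probes well above background on all 4 arrays and -0.23 for the other 830 probes of the same on pattern. At least 2-fold lower were 39 probes (19.5%; 34 accessions), beside 13% of those 28932 and 13.4% of all 43803, and at least 2-fold higher were 10 (5%; 9 accessions), beside 13.1% and 14.6%. For 119 probes (59.5%) both tailbud values were below both neurula values, beside 37.8% and 35.1%, and for 27 (13.5%) both were above, beside 26.3% and 23.4%. Among the 10 that were higher, 6 were of the 14 that dipped at stage 12 or 15. A low signal at those stages picked the 14, and stage 15 is also a neurula array here. Their higher tailbud values are therefore in part fixed by that choice, and nothing is read from this overlap. With the slide as a block, which leaves stage 20 as the only neurula array compared, the median difference of the 200 was -0.35.

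None of these differences passed a test across all probes. In limma with Benjamini-Hochberg adjustment over 43803 probes, 0 of the 200 and 0 of all probes (0%) had an adjusted p under 0.05, and the lowest adjusted p among the 200 was 0.214. At an unadjusted p under 0.05 there were 36 of the 200 (18%), beside 18.6% of all probes and 17.8% of those with a call on all 4 arrays. With 2 arrays a group, the change between stages of a group counts as error. Leaving out stage 25 gave 22 of the 200 past the threshold (11%), 5 higher and 17 lower in the tailbud, with the lone stage 35 assumed to vary like the other group, but 5588 of all probes (12.8%) passed as well. Leaving out stage 20 gave 1 of the 200 (0.5%) and 1247 of all probes (2.85%), leaving out stage 35 gave 0 and 1569 (3.58%), and leaving out stage 15 gave 0 and 0. When all 13 arrays shared the spread, with stage 30 in a group of its own, 0 of the 200 and 889 of all probes (2.03%) passed. That spread includes the step from stage 10.5 to stage 12, and the rule used the stage 10.5 signal. In that step 87% of the 200 rose at least 2-fold, beside 21.1% of all probes with a call on either array. The shares that passed are therefore not compared. With stage 30 also counted as tailbud, which the rule had used, 5 of the 200 (2.5%), all higher in the tailbud, and 6449 of all probes (14.7%) passed. The spread again includes stage 10.5, so these shares are not compared either. With spike-in scaling the median difference had the opposite sign, 0.39, below the median of all probes by 0.28 as it was without it.

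The probe with the largest rise, Xl#S13591132_1410, was 1 of those that dipped. Its signal was -2.02 and -3.76 at the gastrula stages 10.5 and 12, -4.41 and -3.21 at stages 15 and 20, -1.34, -0.14 and 0.17 at stages 25, 30 and 35, and 0.13 at stage 40. It was not well above background on the earlier arrays, with values from -8.71 to -6.59, of which the highest was at stage 9. The tailbud stages 25 and 35 both lay above the neurula stages 15 and 20. The difference was 3.22 ± 0.68 (moderated SE, 2 arrays a group), or 9.34-fold, with an adjusted p of 0.214 in limma. Here and below the moderated SE is limma's, in which a probe's spread is drawn toward that of all probes. It is therefore not the SE of the probe's own values alone. The difference lay between 2.47 and 3.98 with 1 array left out, lowest without stage 35 and highest without stage 25. The other probe of its accession gave a difference of 3.23, with the same dip and return, and was already well above background at stage 9, at -5.24, and on no earlier array.

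The probe with the next largest rise, Xl#S16907499_2099, held its onset level longer before it dipped. It had -1.83 and -1.52 at stages 10.5 and 12, -2.98 and -1.13 at stages 15 and 20, 0.34, 0.51 and 0.89 at stages 25, 30 and 35, and 1.05 at stage 40. All 5 earlier values, from -9.15 to -7.70, were not well above background. Signal thus rose at each step after stage 15. The difference was 2.67 ± 0.69 (moderated SE, 2 arrays a group), or 6.37-fold, with an adjusted p of 0.214 in limma. The accession has no other probe on the array. With 1 array left out the difference lay between 1.74, without stage 15, and 3.60, without stage 20. With all 13 arrays sharing the spread and stage 30 apart, the adjusted p in limma was 0.0551 for this probe and 0.0774 for the first. With stage 30 counted as tailbud, the differences were 2.64 and 3.37 and the adjusted p in limma 0.0134 and 0.0210. The rule used stage 10.5, which enters the spread of both these fits, and stage 30, which enters the latter contrast. These p-values are therefore given as a description only.

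The largest fall was that of Xl#S13715973_565. Its signal was -1.02 and 3.08 at stages 10.5 and 12, 4.18 and 4.35 at stages 15 and 20, 3.01, 0.29 and -2.10 at stages 25, 30 and 35, and -0.81 at stage 40, and it was not well above background on the earlier arrays, with values from -8.63 to -6.98. It was thus high from the late gastrula to the early tailbud and low afterwards, and at stage 35 it was below its onset level. The difference was -3.81 ± 1.58 (moderated SE, 2 arrays a group), with an adjusted p of 0.278 in limma. Most of it came from stage 35: without that array the difference was -1.26, and without stage 25 it was -6.36. The other probe of its accession gave -3.96 and was also not well above background before stage 10.5.

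Xl#S13597024_298 fell next most. It had -2.19 at stage 10.5, 1.099 at stage 12, 0.91 and 2.23 at stages 15 and 20, 0.60, -0.29 and -2.54 at stages 25, 30 and 35, and -0.50 at stage 40, with -8.98 to -7.56 on the earlier arrays, where it was not well above background. As in the probe before, stage 35 was the lowest value from stage 10.5 on, and stage 40 lay above it. The difference was -2.54 ± 1.09 (moderated SE, 2 arrays a group), with an adjusted p of 0.288 in limma. Without stage 35 it was -0.98 and without stage 25 it was -4.11. All 4 of these probes were among the 22 that passed when stage 25 was left out, and the second rise was the 1 that passed without stage 20. No other probe on the array carries its accession.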

How the data were processed

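Whole eggs and embryos were measured on 13 Agilent one-color arrays of a 4x44k frog design, 1 per stage. The authors extracted total RNA, labeled it by Quick-Amp, and deposited the output of Feature Extraction 10.7.3.1, in which each spot has a background-corrected intensity on a linear scale, an error estimate, median intensities of spot and background, and detection flags. The series table holds the same intensity (587860 of 587860 values identical). Of 45220 spots, 1417 controls were left out. The authors' floor of 1 was not applied, as 0 signals lay under it. As in their methods, each array was scaled to its 75th percentile, here by subtraction on the log2 scale.

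Tests used limma 3.58.1 in R 4.3.3 (lmFit, eBayes, Benjamini-Hochberg, threshold 0.05), and this step was tested on simulated data. Other values came from Python 3.11.15, numpy 2.4.6 and pandas 2.3.3. Stages were grouped by sample title. Alternatives were quantile normalization, scaling to the array median or to the 7 of 10 spike-in probes well above background on each array, normexp (offset 50, on median signals, since the files hold no mean), a filter on dim probes, stage 30 added, the slide as a block, all 13 arrays with stage 30 as tailbud, each array left out, 1 value per accession, a 4-fold limit and the weaker detection flag. Scaling of the onset step and of the further probes, the further probes called on both arrays, and all 13 arrays with stage 30 apart were added after seeing the data.

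The probes, lists and tests were chosen with earlier results of these data known. Named probes were the 2 largest rises and 2 largest falls between neurula and tailbud among all 200, as none passed the threshold. Lists of genes, markers and promoter motifs that had been planned were not used here, because no probe had a gene name. The number of arrays limits the precision.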

Additional observations from a re-analysis of the deposited data

Results flagged for a closer look

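A weaker flag of the scanner software, which marks a spot as positive and significant against its local background, was not used to choose the 200 probes. By this flag 27% of them had signal in the egg, 40% at the two-cell stage, 40% at the 16-cell stage, 29.5% at stage 8 and 43% at stage 9, that is 54, 80, 80, 59 and 86 probes. These shares were singled out because they lie above those of the 153 negative-control spots, which were 4.58%, 7.19%, 3.27%, 4.58% and 3.92% on the same arrays. Among all probes that were not well above background there, the shares were 35.2%, 42.7%, 41.3%, 40.3% and 36.9%, above those of the 200 probes except at stage 9. On all 5 arrays before stage 10.5, 65 of the 200 probes (32.5%) lacked the weaker flag. The same share among all probes not well above background on these arrays was not counted, so nothing is read from the 65. What gives the weak signal was not tested.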

How the results depend on the processing

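For the tailbud against the neurula, 0 of the 200 probes and 0 of all probes passed in limma. A spread shared over all 13 arrays includes stage 10.5, which the rule used. Counts under it are therefore not compared between the 200 and all probes. Sharing the spread over all 13 arrays gave 0 and 889 with stage 30 in a group of its own, a setting added after seeing the data, and 5 and 6449 with stage 30 in the tailbud group, and leaving out 1 array at a time gave 0 to 22 of the 200 and 0 to 5588 of all probes. The median difference of the 200, -0.52, was -0.70 with scaling to the median, -0.35 with the slide as a block, which leaves stage 20 against stages 25 and 35, and 0.39 with spike-in scaling, which reverses it. With 1 array left out it lay between -0.69 and -0.35. Relative to all probes it was -0.28, and -0.37 to -0.17 with 1 array left out. With a 4-fold limit, the 200 probes that changed numbered 109, 7, 0, 0, 1, 2 and 1 in the 7 steps in order of stage, against 178, 47, 29, 10, 13, 6 and 19 with 2-fold. Spike-in scaling gave 25 from stage 20 to stage 25, and quantile normalization 11 from stage 30 to stage 35. Shares of all probes were not counted with the 4-fold limit or these scalings, so nothing about the 200 is read from these counts. With spike-in scaling 46 of the 200 probes had their highest signal at stages 12 to 20, against 151 without it. Of the 200 probes the rule kept 180 with quantile normalization, 156 when scaled to the median, 141 when scaled to spike-ins, 178 with normexp, and 65 with the weaker detection flag. Onset limits were 14.6-fold at the median with quantile normalization, against 29.6-fold. Of the further probes, 70 rose 2-fold, and 23 of 24 among those well above background on both arrays. No paired analysis was possible because a stage was measured once, so no replicate number links arrays. Values before stage 10.5 are upper limits only.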

Other observations

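Of the 71 further probes well above background at all 8 stages from 10.5, 3 ran against the chosen probe of their accession, with correlations of -0.34, -0.65 and -0.23 over the 8 stages. All 3 lacked a call before stage 10.5 and were higher at stage 10.5 than the below-background stage 9 value, by 3.16, 7.82 and 3.69 on the log2 scale as measured. They differ from the chosen probe in what followed, with ranges of 2.94, 2.58 and 1.56 (log2) from stage 10.5 to stage 40. These 3 were singled out after their values were seen, and why probes of 1 accession differ was not tested.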
